A study of Mus musculus with 18 samples.

Results

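The 219 array probes described here were lower in digit tips without the receptor gene Fzd6 at embryonic stage E14.5 (days after mating) and lay close to wild type at E16.5 and E18.5. They were chosen from 42006 probes by the scanner software's processed signals, as log2 of the digit-tip channel over the reference channel. A member had a Fzd6-/- (KO) mean at least 1 log2 unit below the wild-type (WT) mean at E14.5, and KO means within 0.5 of WT at E16.5 and at E18.5. The WT mean at E16.5 lay less than 1 above that at E18.5, and the scanner software flagged the digit-tip channel as well above background for each of the 3 WT E14.5 arrays. These values chose the members, so the differences between KO and WT are given below as a description, with no test. Of the 42006 probes, 1308 met the limit at E14.5 and 911 of those the detection limit. Of the 911, 340 were within the limit at E16.5, 453 within that at E18.5 and 797 within the limit on the WT course.

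Frizzled receptors sit in the cell membrane and bind Wnt ligands, and Frizzled6 acts in the branch of Wnt signalling that orients cells within a sheet. Loss of Fzd6 disturbs hair orientation in mice, and variants of the human gene are known from families with malformed nails. Between the sampled stages the mouse digit tip forms its nail field, nail matrix and cornifying skin while its bones and tendons take shape.

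The groups were KO E14.5, WT E14.5, KO E16.5, WT E16.5, KO E18.5 and WT E18.5, with 3 arrays each and 18 in all. The animals were C57BL/6 embryos of mixed sex from matings of Fzd6+/- mice, so the KO allele was in every cell of the KO embryos, and all tissue was the excised forelimb digit tip. Each array held 1 sample labelled with the green dye Cy3 beside a common reference labelled with the red dye Cy5, which was a pool of RNA from 11 mouse cell lines mixed with embryonic stem cell RNA. Values are log2 of Cy3 over Cy5, and a difference of 1 is 2-fold.

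The arrays were on 5 slides and scanned in 2 batches, replicates 1 and 2 in the first and replicate 3 in the second. KO E14.5 and WT E14.5 shared a slide for replicate 3 only, while KO E16.5 and KO E18.5 shared their slides for all 3 replicates. On single arrays 59.8% to 69.2% of probes were well above background in Cy3. WT E18.5 replicate 1 lay apart from the other arrays of its group, and the 3 WT E18.5 arrays correlated at 0.919 to 0.953 over the 27989 probes tested. The files pair no probe with a gene. The probe for Fzd6, cell type markers and gene lists were therefore not analysed here, the genotype labels and the tissue were not checked against their genes, and the members are called by their IDs and 60-base sequences. In whole tissue, fewer cells of a type and less RNA per cell cannot be told apart.

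The first sequences shown are those of the 6 members with the lowest KO minus WT difference at E14.5 among the 150 members whose Cy3 signal cleared background on every one of the 18 arrays. They show the extreme of these 150 members, in which the difference was measured with signal in every sample, and not a typical member.
Z00024307-1: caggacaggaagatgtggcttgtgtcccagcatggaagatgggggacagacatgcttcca
Z00074703-1: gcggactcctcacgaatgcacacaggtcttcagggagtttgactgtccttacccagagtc
Z00053293-1: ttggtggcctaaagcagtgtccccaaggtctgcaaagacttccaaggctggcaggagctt
Z00074557-1: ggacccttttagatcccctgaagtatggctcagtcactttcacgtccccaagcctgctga
Z00056547-1: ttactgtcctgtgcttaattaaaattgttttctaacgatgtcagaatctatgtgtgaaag
Z00052736-1: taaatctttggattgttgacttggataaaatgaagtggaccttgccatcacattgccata

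Some members share bases with other probes and may read the same RNA, so the 219 need not be 219 separate transcripts. Probes were not mapped to transcripts. Sharing at least 20 bases in a row with another probe was found for 8 pairs, of which 2 joined a pair of members. One of these is shown with the 36 shared bases in capitals.
Z00035221-1: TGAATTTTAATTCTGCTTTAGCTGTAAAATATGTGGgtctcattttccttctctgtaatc
Z00075197-1: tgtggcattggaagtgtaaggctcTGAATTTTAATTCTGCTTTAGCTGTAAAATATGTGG
Z00035221-1 measured 0.39, 0.13 and 0.37 on the KO E14.5 arrays, against 1.28, 1.25 and 1.23 on the WT E14.5 arrays. Z00075197-1 measured 0.39, 0.24 and 0.30 on the KO E14.5 arrays, against 1.38, 1.29 and 1.27 on the WT E14.5 arrays. Their differences were -0.95 and -1.01, and both probes had to be lower in KO to be members. The other such pair was Z00025962-1 and Z00043994-1, which share 30 bases and differed by -0.43 and -0.41.

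In 1 pair the probes lie on opposite strands. Z00061608-1, a member, pairs over 58 bases, in capitals, with Z00031510-1, which is no member.
Z00061608-1: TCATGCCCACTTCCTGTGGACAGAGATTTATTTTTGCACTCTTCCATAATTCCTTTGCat
Z00031510-1: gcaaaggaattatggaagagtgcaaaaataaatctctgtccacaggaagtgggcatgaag
On the processed signals that chose the members, KO minus WT at E14.5 was -1.91 for Z00061608-1 and 0.13 for Z00031510-1. After normexp background correction and loess, the scale used in all that follows, the same differences were -0.29 and 0.15. Z00061608-1 was well above background on 1 of 3 KO E14.5 arrays, and its 3 KO arrays (0.43, 0.02 and 0.11) overlapped the 3 WT arrays (0.43, 0.43 and 0.56).

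The other 5 pairs joined a member to a non-member of the same strand. Z00055675-1 and Z00070141-1, which share 45 bases, had differences of -0.85 and -0.82. Z00074635-1 and Z00024218-1, also sharing 45 bases, had differences of -0.95 and -0.85. In both pairs the neighbour was lower in KO as well, and it missed the limit at E14.5 with -0.65 and -0.93 on the processed signals. Z00070141-1 also missed the limit at E16.5, where it was at -0.54 on the processed signals. After normexp and loess Z00015212-1 and Z00035636-1 differed more from each other, at -0.73 and -0.35, as did Z00016166-1 and Z00035752-1, at -0.68 and -0.36. On the processed signals the former pair was at -1.13 and -0.49. The latter pair was closer on that scale, at -1.10 and -0.98. Z00029251-1 shares 56 bases with Z00076433-1, which was -1.34 on the processed signals but did not clear background on each WT E14.5 array and was also far below WT at E18.5, at -1.49 on the processed signals.

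The members' probes had a median GC content of 43.3%, against 45.0% in all 27989 tested probes. The letters AATAAA, which signal where a messenger RNA is cut and given its poly(A) tail, were in 20 members, or 9.13%, and in 7.69% of tested probes. Their reverse complement TTTATT was in 3.20% of members and 3.14% of tested probes. The motif was searched in the probe as printed and on the other strand, and a match describes the probe and is not evidence of use. Z00030279-1, among the 3 members with the largest WT difference between E16.5 and E14.5 and signal on all arrays, holds the motif, in capitals.
Z00030279-1: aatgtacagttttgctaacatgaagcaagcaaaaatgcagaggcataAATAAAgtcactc

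At E14.5 the members were lower in KO digit tips by a median of 0.87 log2 units, since the median KO minus WT difference was -0.87 with quartiles of -1.12 and -0.47. The differences of single members ran from -2.66 to -0.10, and the median over all tested probes was near 0, at -0.003. Of the 219, 83 were at or below -1 on this scale, as were 395 of all tested probes. The limma fit called 136 members, or 62.1%, lower at an adjusted p under 0.05, where 5.22% of all tested probes were called lower, and 0 higher, where 3.72% of all tested probes were. In 205 members, or 93.6%, all 3 KO E14.5 arrays were below all 3 WT E14.5 arrays, against 20% of tested probes. The rule chose the members on this contrast, so nothing is read from these counts.

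**Figure D1:**
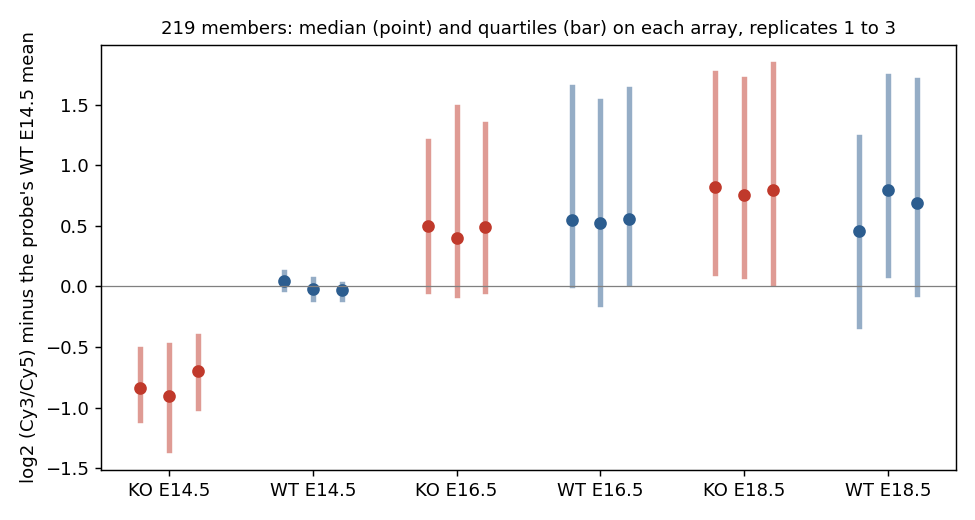
Members' values on each array as log2 of Cy3 over Cy5, less each probe's WT E14.5 mean. Points are medians over the 219 members and bars run between the quartiles, with KO in red and WT in blue and replicates 1 to 3 from left to right. The KO E14.5 medians lie between -0.91 and -0.70, and the 12 arrays of the later stages have medians between 0.40 and 0.82.

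By replicate number, KO minus WT at E14.5 had a median over members of -0.86 for replicate 1, -0.93 for replicate 2 and -0.67 for replicate 3, the pair on 1 slide. For each replicate number 217 of 219 members were lower in KO, against 14122, 14591 and 13868 of all tested probes for replicates 1, 2 and 3. The same 6 arrays chose the members, so nothing is read from these counts. For replicates 1 and 2 slide and genotype cannot be told apart.

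The difference lay in the digit-tip channel. In Cy3 alone, after loess and then quantile scaling of the average signal between arrays, the median KO minus WT difference at E14.5 was -0.83, and 216 members were below 0. In Cy5 alone, which held the same reference RNA on every array, the median was 0.02 with quartiles of -0.03 and 0.06. Members that moved by at least 0.5 in Cy5 were picked out after their values were seen. Z00023654-1 (-1.33), Z00037221-1 (-0.96), Z00021625-1 (-0.62) and Z00074557-1 (-0.54) were lower in Cy5, and all 4 were below -2 in Cy3. Z00038281-1 (0.69) and Z00046116-1 (0.54) were higher in Cy5, and their Cy3 differences were 0.35 and 0.27. In both of these the digit-tip signal itself was not lower in KO.

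**Figure D2:**
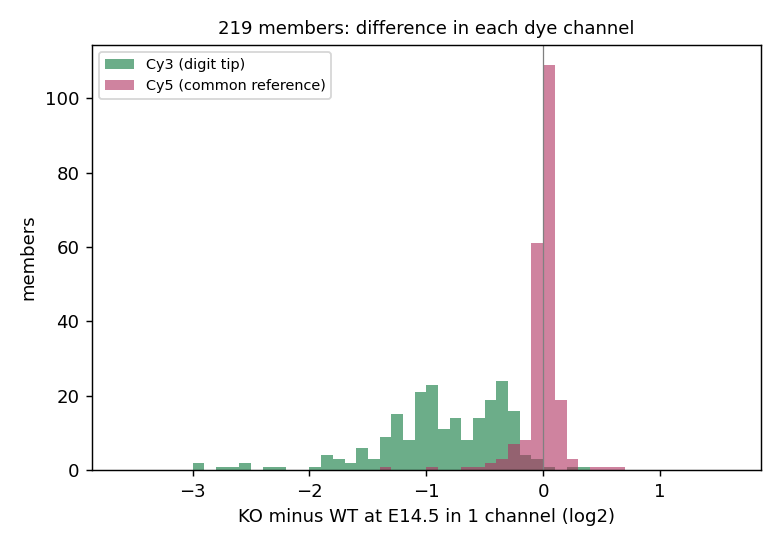
Number of members (vertical axis) by KO minus WT difference at E14.5 in a single dye channel, in log2 units. The Cy5 reference differences gather around their median of 0.02, and the Cy3 digit-tip differences spread below 0 around a median of -0.83.

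The members' spots were dim at E14.5 and in the reference channel, but not in WT E16.5, where their median Cy3 signal was 9.28 against 8.79. Their median Cy3 signal in WT E14.5 was 8.11 on the log2 scale, against 8.79 over all tested probes, and their median Cy5 signal was 7.78 against 8.75. In KO E14.5, 155 members were well above background on all 3 arrays, 22 on 2, 26 on 1 and 16 on none. For the 155 the median difference was -0.9985 after normexp and loess and -1.20 on the processed signals. For the 16 it was -0.44 and -2.22. The 2 scales differ in both background and dye correction, which were not told apart here. For the 16 a Cy3 fold was taken with KO on each array set to its own signal or the dimmest detected signal, whichever was higher. It ran from 1.05-fold to 1.68-fold lower in KO. Where the spot's own signal was the higher, this is an estimate from an undetected spot and no bound. Z00026865-1 is a case, at 1.28-fold with a Cy3 difference of -0.36.

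The brightest members not well above background in KO E14.5 were Z00045234-1 and Z00060378-1. Z00045234-1 measured 0.08, -0.01 and 0.12 on the KO E14.5 arrays, against 1.03, 0.65 and 0.79 on the WT E14.5 arrays, and was 1.68-fold lower by that Cy3 fold. It was well above background on all 12 arrays of the later stages. Z00060378-1 measured -0.34, -0.34 and -0.22 on the KO E14.5 arrays, against 0.49, 0.44 and 0.56 on the WT E14.5 arrays, and was 1.63-fold lower by that Cy3 fold. It was well above background on the 3 WT E14.5 arrays and on none of the other 15. Both had KO arrays that did not overlap WT at E14.5, but Z00060378-1 was measured at that stage in WT and nowhere else.

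Among members with signal on all arrays, Z00024307-1 had the lowest difference. It measured -1.77, -1.99 and -1.30 on the KO E14.5 arrays, against 1.38, 0.98 and 0.58 on the WT E14.5 arrays, a difference of -2.66 ± 0.22 (SE, n = 3 per group). At E16.5 it measured 3.94, 4.37 and 4.17 in KO, against 4.32, 4.49 and 4.51 in WT. At E18.5 it measured 4.97, 5.003 and 4.67 in KO, against 4.72, 4.87 and 5.38 in WT. The genotypes were apart at E14.5, when the level was lowest in both, and overlapped at the later stages.

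Z00074703-1 measured 0.37, 0.07 and 0.39 on the KO E14.5 arrays, against 2.94, 2.94 and 2.54 on the WT E14.5 arrays, a difference of -2.53 ± 0.18 (SE). Its E16.5 means were 4.52 ± 0.21 in KO and 4.81 ± 0.19 in WT (SD, n = 3 each), and its E18.5 means were 5.12 ± 0.13 in KO and 5.26 ± 0.41 in WT. Its KO and WT arrays overlapped at both later stages.

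Z00053293-1 measured 1.65, 0.84 and 1.69 on the KO E14.5 arrays, against 3.92, 3.54 and 3.58 on the WT E14.5 arrays. Z00074557-1 measured 1.74, 0.96 and 1.84 on the KO E14.5 arrays, against 3.94, 3.68 and 3.55 on the WT E14.5 arrays. Replicate 2 was the lowest KO array for both, and the differences were -2.29 ± 0.22 and -2.21 ± 0.22 (SE). By E18.5 Z00053293-1 averaged 6.27 ± 0.14 in KO and 6.29 ± 0.37 in WT, and Z00074557-1 averaged 6.03 ± 0.10 in KO and 6.07 ± 0.37 in WT (SD, n = 3 each).

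Z00056547-1 measured -0.23, -0.41 and -0.19 on the KO E14.5 arrays, against 1.66, 1.59 and 1.48 on the WT E14.5 arrays. Z00052736-1 measured 0.81, 0.29 and 0.67 on the KO E14.5 arrays, against 2.54, 2.42 and 2.21 on the WT E14.5 arrays. Their differences were -1.85 ± 0.19 and -1.80 ± 0.28 (SE). At E16.5 Z00056547-1 averaged 4.02 ± 0.26 in KO and 4.23 ± 0.15 in WT, and Z00052736-1 averaged 4.59 ± 0.17 in KO and 4.89 ± 0.20 in WT (SD, n = 3 each). In all 6 of these members KO E14.5 was the lowest group and WT E14.5 the next, with no overlap between them. Z00044858-1, picked out after its values were seen, had a difference of -2.59 but was well above background on 2 of 3 KO E14.5 arrays.

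**Figure D3:**
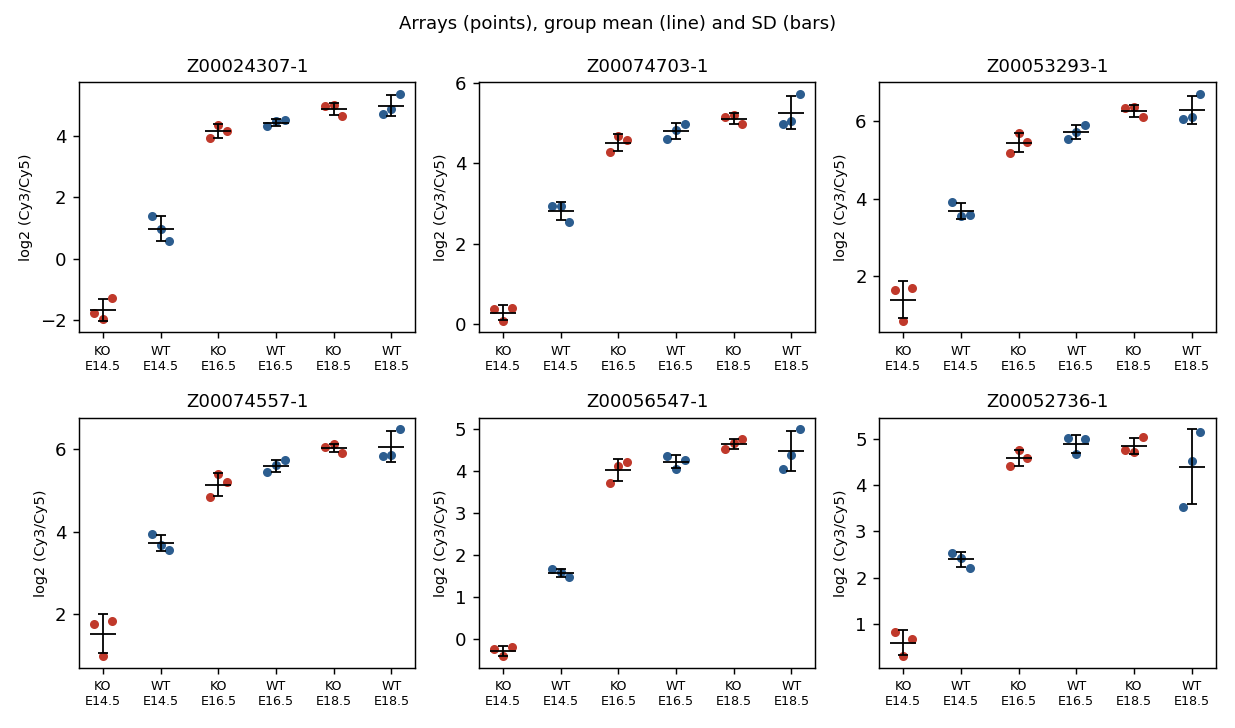
Log2 of Cy3 over Cy5 of the 6 members with the lowest KO minus WT difference at E14.5 among those with signal on all 18 arrays. Points are arrays, with KO in red and WT in blue, and lines and bars are the group mean and SD. In each panel the 3 KO E14.5 arrays lie below the 3 WT E14.5 arrays, and both lie below the 12 later arrays.

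The brightest member in WT E14.5 was Z00023365-1. It measured -0.42, -1.26 and -0.51 on the KO E14.5 arrays, against 0.67, 0.48 and 0.56 on the WT E14.5 arrays, a difference of -1.30 ± 0.24 (SE). It averaged 1.42 ± 0.38 in KO and 1.68 ± 0.42 in WT at E16.5, and 2.19 ± 0.09 in KO and 1.90 ± 0.32 in WT at E18.5 (SD, n = 3 each). Its Cy3 difference of -1.23 and its Cy5 difference of 0.07 were measured far above background.

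At the limit of the rule, Z00075279-1 and Z00016353-1 lay just inside, at -1.0003 and -1.0014 on the processed signals, and Z00016119-1 and Z00018982-1 just outside, at -0.997 and -0.996. After normexp and loess Z00016353-1 (-0.98), Z00016119-1 (-0.97) and Z00018982-1 (-0.93) were close to each other, while Z00075279-1 was at -0.27.

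At the later stages, which the rule held near WT, the median KO minus WT difference was -0.14 at E16.5 and 0.11 at E18.5. The fit called 3 members lower at E16.5 (6.14% of tested probes) and 0 higher (6.08% of tested probes). They were Z00022710-1 (-1.05), Z00025631-1 (-0.47) and Z00074777-1 (-0.37). At E18.5 it called 0 lower (3.13% of tested probes) and 4 higher (5.72% of tested probes), Z00060198-1 (1.30), Z00025286-1 (1.00), Z00024799-1 (0.89) and Z00056085-1 (0.56). These 7 were named after their values were seen, and Z00022710-1, Z00060198-1 and Z00025286-1 lay within the rule's limits on the processed signals, at -0.19, -0.17 and -0.10.

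The level of the members over the stages was lowest in KO E14.5. The median over members of the group mean was -0.06 in KO and 0.51 in WT at E14.5, 0.87 in KO and 0.92 in WT at E16.5, and 1.13 in KO and 0.91 in WT at E18.5. In 155 members all 3 KO E14.5 arrays were below all other 15 arrays. The rule favours this order, and its share over all tested probes was not counted, so nothing is read from it. KO E16.5 was above KO E14.5 by a median of 1.28, and WT E16.5 was above WT E14.5 by a median of 0.46. Both steps share E14.5 arrays with the rule, so the fit's calls are given as a description and nothing is read from them. It called 165 members higher in KO E16.5 than in KO E14.5 (12.2% of tested probes) and 0 lower (11.5%). It called 106 members higher in WT E16.5 than in WT E14.5 (12.7% of tested probes) and 9 lower (15.6%). Between WT E18.5 and WT E16.5 the median difference was -0.01. The fit called 24 members, or 11.0%, higher (7.38% of tested probes) and 18, or 8.22%, lower (9.96%). The rule limited falls over this step, so these calls too are a description and nothing is read from them.

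The members differed among themselves in what WT did between E14.5 and E16.5, and 4 ranges of the WT difference, set after the values were seen, describe this. In 84 members WT was higher at E16.5 by at least 1, in 22 by 0.5 to 1, in 104 it lay within 0.5, and in 9 it was lower by at least 0.5. Among the 84, the median level was 0.06 in KO and 0.90 in WT at E14.5, 2.83 in KO and 3.17 in WT at E16.5, and 3.40 in KO and 3.00 in WT at E18.5. In 83 of these 84 the KO E14.5 arrays were below all other 15. The rule and this range of the WT difference favour that order, and its share over all tested probes was not counted, so nothing is read from it. The KO minus WT medians at E14.5 were -1.03 in the 84, -1.03 in the 22, -0.56 in the 104 and -1.05 in the 9. The 104 were also the dimmest, with a median Cy3 signal of 7.34 in WT E14.5, against 8.61 in the 84, 9.49 in the 22 and 8.65 in the 9.

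**Figure D4:**
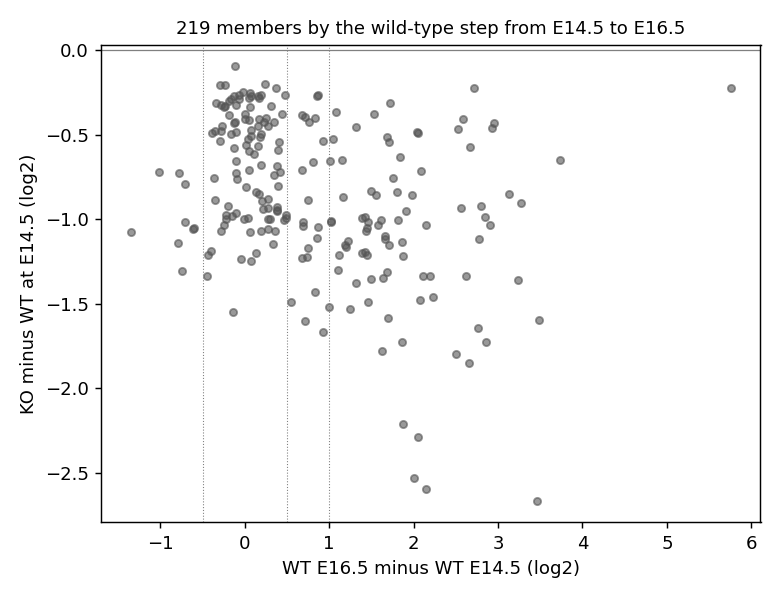
Each point is 1 of the 219 members. The horizontal axis is WT E16.5 minus WT E14.5 and the vertical axis KO minus WT at E14.5, both in log2 units and both using the WT E14.5 arrays, with dotted lines at -0.5, 0.5 and 1. All points lie below 0 on the vertical axis, and 84 lie at or right of 1.

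Among members with signal on all arrays, the largest WT differences between E16.5 and E14.5 were those of Z00046863-1, Z00030279-1 and Z00024307-1, at 3.73, 3.49 and 3.46. Z00046863-1 measured 0.73, 0.42 and 0.30 on the KO E14.5 arrays, against 1.30, 1.04 and 1.05 on the WT E14.5 arrays. At E16.5 it measured 4.04, 4.48 and 4.37 in KO, against 4.68, 4.96 and 4.94 in WT. Its KO arrays were below its WT arrays at both stages, with differences of -0.65 and -0.57, and at E18.5 they overlapped, at 5.11 ± 0.13 in KO and 5.39 ± 0.44 in WT (SD, n = 3 each). Z00030279-1 measured 0.81, 0.24 and 0.68 on the KO E14.5 arrays, against 2.26, 2.18 and 2.08 on the WT E14.5 arrays. Its WT arrays spread widely later, from 5.05 to 6.25 at E16.5 and from 3.93 to 6.01 at E18.5. The member farthest right in the plot by WT difference, Z00006822-1, picked out after its values were seen, had a WT difference of 5.75 and was well above background on 1 of 3 KO E14.5 arrays.

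In the other direction, and again with signal on all arrays, the largest differences were those of Z00061932-1, Z00039527-1 and Z00020905-1, with WT differences between E16.5 and E14.5 of -1.34, -0.79 and -0.77. Z00061932-1 measured 2.23, 1.39 and 2.20 on the KO E14.5 arrays, against 3.13, 2.79 and 3.13 on the WT E14.5 arrays. At E16.5 it measured 2.75, 2.16 and 2.51 in KO, against 2.14, 0.90 and 1.99 in WT. WT was thus highest at E14.5 and KO at E16.5, where all 3 KO arrays were above the WT arrays. Z00039527-1 measured 1.76, 0.85 and 1.47 on the KO E14.5 arrays, against 2.38, 2.48 and 2.64 on the WT E14.5 arrays. Its KO mean was 2.17 ± 0.19 and its WT mean 1.71 ± 0.47 at E16.5 (SD, n = 3 each), and the arrays overlapped. Z00020905-1 had means of 2.49 ± 0.21 in KO and 3.22 ± 0.22 in WT at E14.5, and of 3.01 ± 0.35 in KO and 2.44 ± 0.59 in WT at E16.5. WT replicate 2 was the lowest WT E16.5 array for all 3 of these members.

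In KO digit tips the fit called 65 of 219 members, or 29.7%, higher at E18.5 than at E16.5, where 13.8% of all tested probes were. It called 5 members, or 2.28%, lower, where 13.1% of all tested probes were. Both groups lay on the same slides in each scan batch, and neither is part of the E14.5 contrast. The rule did use them, since it held KO near WT at both stages and WT E16.5 less than 1 above WT E18.5, which limits falls and not rises. The counts are therefore a description. Of the 17117 other tested probes that met every limit of the rule but the one on KO minus WT at E14.5, a comparison added after seeing the data, 10.8% were called higher and 14.3% lower. The median KO E18.5 minus KO E16.5 difference was 0.22 over the members and -0.01 over all tested probes, and 153 members, or 69.9%, were above 0, against 48.6% of tested probes. With median centring in place of loess, 10 members, or 4.57%, were called higher and 2 lower, where 3.05% of tested probes were called higher and 6.23% lower. Among the 17117 that setting called 0.631% higher and 5.95% lower, and their median moved to -0.26, against -0.02 with loess.

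The median of this step over members was 0.24, 0.21 and 0.30 for replicates 1, 2 and 3. On the slide with replicates 1 and 2 it was 0.22, and on the slide with replicate 3 it was 0.30. Of the 65, 20 were higher by at least 1, as were 1025 of the 3866 tested probes called higher, and the median of the 65 was 0.81. By WT range, 33 of the 84 (39.3%) were called higher and 0 lower, and 13 of the 22 (59.1%) higher and 1 lower. In the 104, 19 (18.3%) were called higher and 3 lower, and in the 9, 0 higher and 1 lower. Over all tested probes 13.8% were called higher and 13.1% lower. The ranges use WT E16.5 values, to which the rule tied KO E16.5, so nothing is read from how they differ.

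Z00054660-1 had the largest step upward. It measured 2.98, 2.95 and 2.47 in KO E18.5, against 0.75, -0.07 and 0.66 in KO E16.5, a difference of 2.35 ± 0.31 (SE). In WT it averaged 2.28 ± 0.40 at E18.5 and 0.82 ± 0.43 at E16.5 (SD, n = 3 each), a difference of 1.47. At E14.5 it measured -1.05, -1.76 and -0.47 in KO, against 0.33, 0.18 and -0.10 in WT, and KO was the lowest of the groups.

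Z00024485-1 measured 3.50, 3.51 and 3.44 in KO E18.5, against 1.37, 1.29 and 1.64 in KO E16.5, a difference of 2.05 ± 0.33 (SE). In WT E18.5 it measured 1.54, 3.32 and 3.38, with replicate 1 far below the others, against 1.80, 1.28 and 1.81 in WT E16.5. At E14.5 it averaged -0.29 ± 0.18 in KO and 0.10 ± 0.08 in WT (SD, n = 3 each).

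Z00025875-1 had the largest step downward. It measured 0.95, 1.17 and 1.16 in KO E18.5, against 2.67, 2.60 and 2.65 in KO E16.5, a difference of -1.55 ± 0.27 (SE). Its WT difference over the same stages was -1.20. Z00051454-1 measured -0.85, -0.68 and -0.44 in KO E18.5, against 0.31, 0.45 and 0.39 in KO E16.5, a difference of -1.03 ± 0.13 (SE), and its WT difference was -0.60. Both were highest in KO E16.5 and were lower at E14.5 in KO than in WT, by -1.07 and -0.72. The other 3 called lower, named after their values were seen, were Z00071804-1 (-0.98), Z00016353-1 (-0.87) and Z00039527-1 (-0.77).

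**Figure D5:**
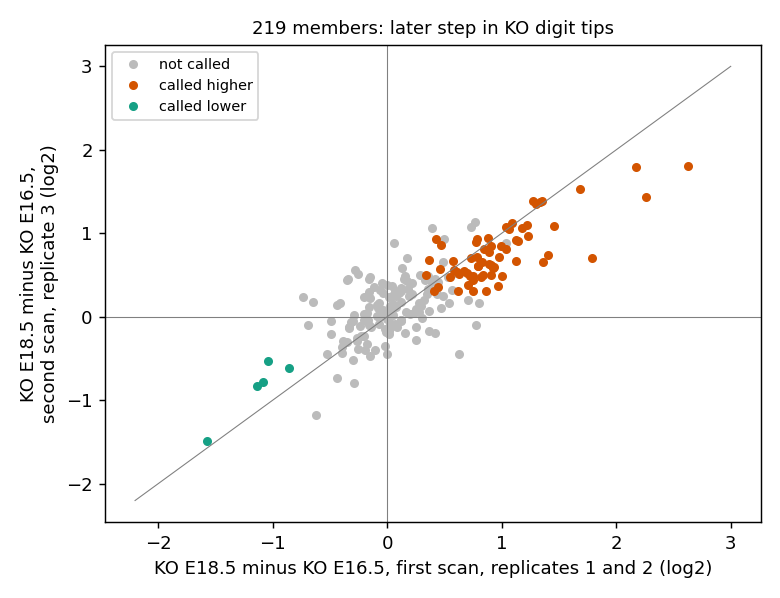
KO E18.5 minus KO E16.5 of the 219 members in log2 units, with the first scan batch (mean of replicates 1 and 2, 1 slide) on the horizontal axis and the second (replicate 3, another slide) on the vertical axis. The line marks equal values, and the 65 members called higher and the 5 called lower, from these same arrays, are coloured.

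For the 6 members lowest at E14.5, KO E18.5 minus KO E16.5 was 0.72 ± 0.22 for Z00024307-1, 0.60 ± 0.18 for Z00074703-1, 0.81 ± 0.22 for Z00053293-1, 0.89 ± 0.22 for Z00074557-1, 0.63 ± 0.19 for Z00056547-1 and 0.25 ± 0.28 for Z00052736-1 (SE, n = 3 per group).

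Each member's correlation with the members' median profile over the 18 arrays had a median of 0.865 over members and ran from -0.453 to 0.983, and 89 of the 218 members with all values were above 0.9. The rule shaped this profile on the same arrays, which also share stage, slide and reference, so this is a description. The 3 probes outside the set most like that profile were Z00075835-1 (r = 0.980), Z00017736-1 (r = 0.978) and Z00022385-1 (r = 0.978). They were also lower in KO at E14.5, by -0.93, -0.72 and -0.85, and missed the limit of the rule with -0.91, -0.70 and -0.75 on the processed signals. In all, 503 probes outside the set correlated with the profile above 0.9.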

How the data were processed

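Agilent Feature Extraction 9.5.1.1 made the deposited scanner files, per the file headers. Their spot and background intensities are raw, and their processed intensities carry the software's own background and dye correction, per the file headers. Per the labels, Cy3 was the digit-tip RNA on every array, so no dyes were swapped and dye bias is removed only in differences between groups. The deposited value table (log10, 25030 probes, 157 of the members) has its scale, centring and direction unstated. Centred by probe, it followed log10 of Cy3 over Cy5 of the processed intensities at r of at least 0.9999, and the added constant per probe stays unknown. Its column medians lay between 2.44 and 2.48 for all 18 arrays, and it served as an alternative only.

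With limma 3.58.1 in R 4.3.3, the raw intensities underwent normexp correction (offset 50) and loess within arrays. Control spots (1417 of 43451) and 4 to 34 outlier spots per array were left out, and spots of a probe were averaged. Testing required a probe to clear background in Cy3 in all 3 replicates of some group and to have at least 2 values in every group, and all 219 members passed through the rule's own detection limit in WT E14.5. The 6 group means were estimated jointly (lmFit, eBayes, 18 arrays). Two-sided p-values were Benjamini-Hochberg adjusted over 27989 probes, and the threshold was 0.05. With 3 arrays per group, p-values measure the spread between arrays within groups, taken over all 6 groups, and the number of arrays limits the precision. Replicate 3 of every group was on another slide and scan than replicates 1 and 2, so this spread also holds slide and scan. The sample titles give a replicate number only. Values in 1 channel were taken after loess and quantile scaling of the average signal. Cy3 folds of members without signal in KO E14.5 set KO on each array to its own signal or the dimmest detected signal, whichever was higher. They are open to dye bias, and where the own signal was higher they are no bound. The KO step between E16.5 and E18.5 was designed as a test and is given as a description, since the rule used both groups. The fit was tested on simulated data.

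Named with values in every array or by group were 18 members: the 6 lowest at E14.5, the 3 largest WT differences in each direction between E16.5 and E14.5, the 2 largest called KO differences in each direction between E18.5 and E16.5, the brightest, and the 2 brightest without signal in KO E14.5. The members and these choices were made with earlier results of these data known. Sequences are those of the probes in the deposited files.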

Additional observations from a re-analysis of the deposited data

How the results depend on the processing

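The count of probes called for KO against WT at E14.5 was 2503 (1041 higher, 1462 lower). Without background subtraction 3946 were called. The count was 431 with median centring, 620 with slide as a fixed term and 5384 with only the 6 arrays compared. Leaving out 1 E14.5 array at a time gave 1452 to 2051. With fewer arrays in the fit the estimate of spread changes, and for the other settings the cause was not tested. The members' median difference at E14.5 of -0.87 was -1.27 with Agilent's processed signals, -1.28 in the deposited value table, -0.70 with Cy3 alone scaled by quantiles without loess, -0.69 with slide as a fixed term and -0.67 within the second scan, and -0.90 to -0.78 without single arrays. Its sign was fixed by the rule. For KO E18.5 against KO E16.5, 70 of 219 members were called, where 13.8% of tested probes were called higher and 13.1% lower. With median centring it was 12, where 3.05% were called higher and 6.23% lower. Without single arrays it was 48 to 65, where 9.94% to 14.1% were called higher and 8.25% to 14.2% lower. The other settings gave 52 to 101. The 52 were of the 157 members in the deposited value table, where 16% of tested probes were called higher and 20.8% lower. The 101 were without background subtraction, where 17.7% were called higher and 16.7% lower. With the replicate number as a block, in samples that share only a number, the counts were 2381 and 67. For the 67, the share of tested probes called was 13.2% higher and 12.7% lower. Deviations of same-numbered arrays from their group means correlated at -0.224, 0.243 and 0.0749 between KO and WT E14.5, and at 0.0948, 0.138 and 0.191 between KO E18.5 and KO E16.5. Without WT E18.5 replicate 1, chosen after seeing the data, the counts were 3178 and 87. For the 87, the share of tested probes called was 15.9% higher and 14.7% lower. With slide as a term Z00052736-1 was at -1.35 at E14.5 and was not called at an adjusted p under 0.05. The main fit called it, at -1.80. The rule chose it on this contrast, so nothing is read from either call.

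Membership itself depended on the scale and on single arrays. The same rule on normexp and loess values found 98 probes, 67 of them members. On the processed signals without 1 E14.5 array at a time, the rule found 184 to 276 probes, of which 156 to 204 were members. These repeats were added after seeing the data. Signals near background limit the dim members, and 64 of 219 were not well above background on every KO E14.5 array.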
